A study of Mus musculus with 24 samples.

Results

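The genes described here encode the machinery that copies DNA during S phase and repairs it at the replication fork. They are 54 listed genes for DNA replication and repair, and all 54 were found among 24421 gene lines of the count table and passed the filter on low counts, which kept 14205 genes. The genes of replication licensing and the MCM helicase were not part of the list. Transcripts were measured by bulk RNA-seq in populations sorted from bone marrow of male C57BL/6 mice, with 4 young mice aged 12 weeks and 4 aged mice of 107 weeks and no treatment or genetic change given in the labels. Marrow was enriched for cells carrying CD117 (the receptor Kit), and each sort took Lin-Sca1+Kit+ cells, which lack markers of mature lineages. Long-term hematopoietic stem cells (LT-HSC) were CD150+CD48-, short-term hematopoietic stem cells (ST-HSC) were CD150-CD48- and multipotent progenitors (MPP) were CD150-CD48+. Each of the 6 groups of one age and one population had 4 libraries, 24 in all. With 4 mice per age and 4 libraries in each group, libraries of the same age in different populations must share mice. The labels do not tie replicate numbers to a mouse, so libraries were treated as unpaired except in the fits with a replicate block.

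DNA is copied once in each cell cycle. The CMG helicase (Cdc45, the MCM ring and the GINS complex) unwinds the double helix, DNA polymerases epsilon and delta extend the leading and lagging strands from primers laid by polymerase alpha and primase, and the clamp PCNA, loaded by the replication factor C complex, holds the polymerases on DNA. Most of these genes are transcribed as cells pass from G1 into S phase, under transcription factors of the E2F family. LT-HSC are known as a largely quiescent population that divides rarely, and progenitors downstream of them divide more often.

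Library totals ran from 7307151 to 12946550 counts. Levels are CPM with library sizes adjusted by TMM factors, and the 4 values of a group are always given in the order of libraries 1 to 4. Differences are log2 values. Adjusted p-values are those of the quasi-likelihood test in edgeR, with the Benjamini-Hochberg procedure over 14205 genes, unless another tool is named, and a gene is said to rise or fall only where the adjusted p was below 0.05. In bulk samples, fewer cells in S phase and less of a transcript per cell cannot be told apart. Among the sort genes, Slamf1 and Cd48 followed the gates as group means. Slamf1, the gene of CD150, had 26.2 ± 3.85 CPM in young and 72.1 ± 11.7 CPM in aged LT-HSC (SD, n = 4), and at most 0.789 CPM in every other group mean. Cd48 was at 0.178 to 1.25 CPM in LT-HSC, 11.5 to 14.4 CPM in ST-HSC and 66.4 to 90.2 CPM in MPP. Ly6a, the gene of Sca1, had 58.4 ± 7.19 CPM in young and 90.0 ± 18.8 CPM in aged LT-HSC. It had 60.6 ± 9.49 and 56.4 ± 13.8 CPM in ST-HSC, and 30.2 ± 9.22 and 77.2 ± 38.0 CPM in MPP. Young LT-HSC library 1 held 681.7 CPM of Mpo, a gene of granulocyte and monocyte precursors, against 0.533 to 3.86 CPM in the other young LT-HSC libraries, and aged ST-HSC libraries held 105 to 2287 CPM against 54.5 to 77.8 CPM in young ST-HSC. Markers of granulocytes reached 0.152% of counts in aged ST-HSC library 2.

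Summed over the 54 genes, aged LT-HSC had the lowest level of all groups. The sums in young LT-HSC were 2287, 3049, 3297 and 3205 CPM, and those in aged LT-HSC were 1759, 1363, 1501 and 1655 CPM. Every aged LT-HSC library was therefore below every young one. Young ST-HSC held 3526, 2475, 2015 and 3027 CPM and aged ST-HSC 3151, 3176, 2238 and 3414 CPM, with the ages overlapping. Young MPP held 5076, 5138, 5327 and 5241 CPM and aged MPP 5043, 4512, 5777 and 4485 CPM, again overlapping, and no MPP library was as low as any library of the other populations. As group means, the sums were 2959 ± 459.5 CPM in young and 1570 ± 174 CPM in aged LT-HSC, 2761 ± 657 and 2995 ± 518 CPM in ST-HSC, and 5196 ± 111 and 4954 ± 606 CPM in MPP (SD, n = 4 each).

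**Figure D1:**
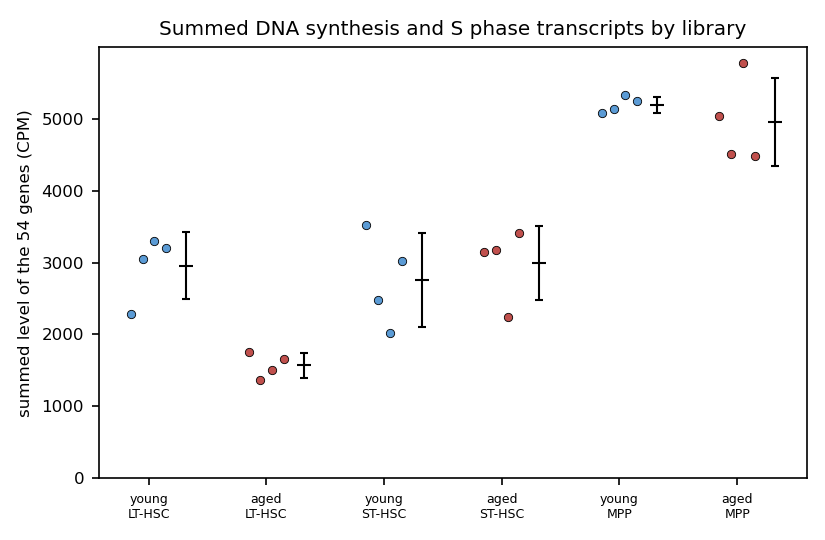
Summed level of the 54 genes (CPM, y axis) in each library, by group on the x axis, with each point a library and the line and bar the group mean and SD. The 4 aged LT-HSC libraries lie between 1363 and 1759 CPM, below all others, and the 8 MPP libraries lie between 4485 and 5777 CPM.

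DNA synthesis transcripts were lower in aged than in young LT-HSC, while almost none passed the test for age in ST-HSC or MPP. In aged LT-HSC 42 of the 54 genes fell, none rose and 12 did not pass the test, where 8.87% of all tested genes fell and 9.98% rose. The median change of the 54 was -1.03, against 0.0022 for all tested genes, and every one of the 54 values was negative, from -2.49 for Rrm2 to -0.04 for Chaf1b. In 38 of the 54 the 4 aged LT-HSC libraries were all below the 4 young ones, a pattern found in 9.62% of all tested genes. In ST-HSC 1 gene, Rfc2, rose and none fell, with a median change of 0.10, and 3.58% of all tested genes rose and 2.21% fell. In MPP none of the 54 rose or fell by edgeR, by DESeq2 or by limma-voom, 1 had an unadjusted p below 0.05 with each of these tools, the median change was -0.08, and 5.53% of all tested genes rose and 4.27% fell. Libraries of the ages did not overlap in MPP for 3 of the 54 (Pole2, Msh6 and Casp8ap2, all lower in aged), where 7.64% of all tested genes were lower without overlap. The 11 B and plasma cell markers made up 0.00845% to 0.0397% of counts in young and 0.185% to 0.883% in aged MPP. The 8 megakaryocyte markers made up 0.0323% to 0.0472% in young and 0.0218% to 0.0225% in aged MPP. The part of these transcripts in the MPP age comparison was not tested.

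**Figure D2:**
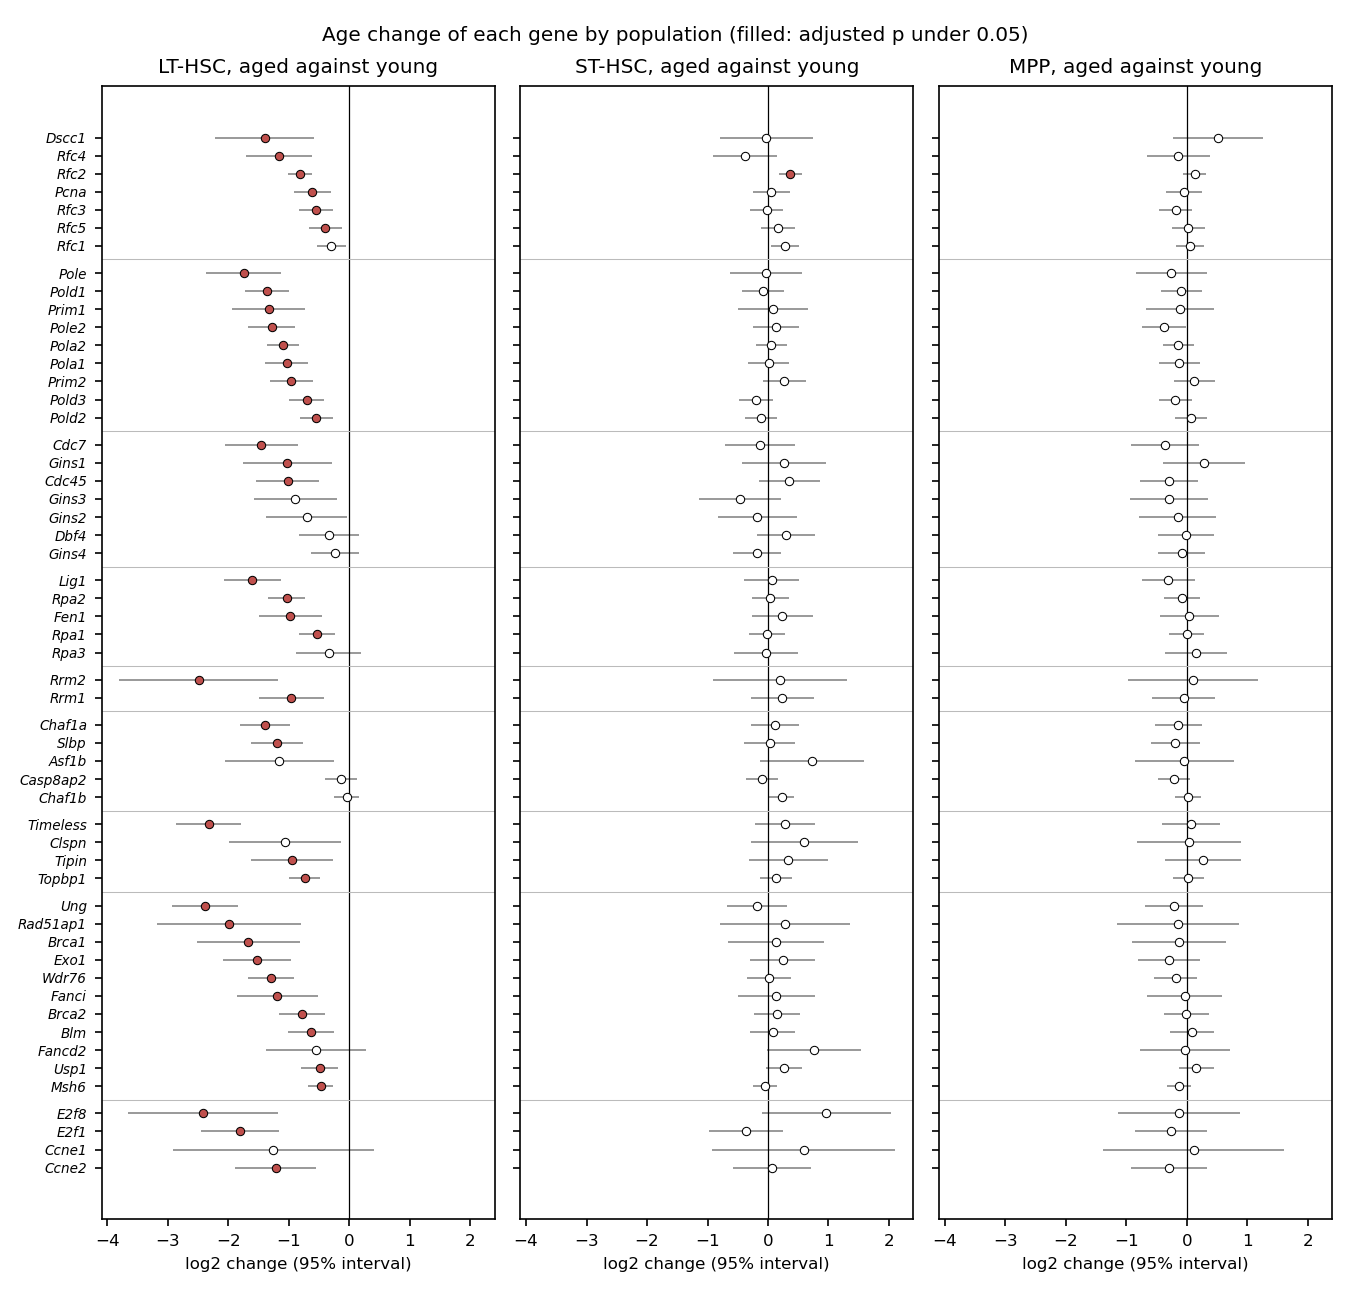
Age change of each of the 54 genes (log2, aged minus young, x axis) with its 95% interval, in LT-HSC, ST-HSC and MPP, with genes in rows grouped by role and filled points where the adjusted p was below 0.05. In LT-HSC 42 points are filled and all lie below 0, in ST-HSC only Rfc2 is filled, and in MPP none is.

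The difference between populations was itself tested. The age change was lower in LT-HSC than in ST-HSC for 22 of the 54 genes and higher for none, where 2.39% of all tested genes were lower, with a median difference of -1.23. Leaving out aged ST-HSC library 3 gave 37 genes and leaving out young ST-HSC library 1 gave 34. The lowest count was 17, without young ST-HSC library 2 or without young LT-HSC library 3. The 2.39% is the share in the fit to all 24 libraries, and shares of all tested genes in these refits are not given here. Against MPP the age change in LT-HSC was lower for 21 genes and higher for none, where 4.89% of all tested genes were lower, with a median difference of -0.96. Between ST-HSC and MPP the age change differed for none of the 54 by edgeR, DESeq2 or limma-voom, with 0, 1 and 6 unadjusted p-values below 0.05, where 0.465% of all tested genes differed by edgeR. The comparisons of LT-HSC with ST-HSC and with MPP share the LT-HSC libraries.

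The promoters of these genes were searched for the E2F motif in the forms TTTCCCGC, TTTCGCGC, TTTGCCGC and TTTGGCGC on both strands. RefSeq windows of 300 bases (250 before to 50 after the start, build GRCm38.p6) were at hand for 42 of the 54 genes. A match was found for 12 of these 42 (28.6%) and for 704 of 27025 genes in the whole table (2.60%). The whole table was not limited to genes that passed the count filter, as all 54 did, so these shares are not matched for expression. Of the 12, 9 fell in aged LT-HSC with a median change of -0.83 over the 12, and of the 30 without a match 24 fell with a median of -1.16, so genes with a match did not have the lower median. The CHR motif (TTTGAA or TTTAAA, both strands), which is known from genes of G2 and mitosis, was in the windows of 26.2% of the 42 genes and 30.6% of all genes. A match is a stretch of letters and no measurement of binding.

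The sequences of 9 of the 12 genes with a match are shown, and of these 9 only Casp8ap2 did not pass the test in aged LT-HSC. Those of Clspn, Gins3 and Pold3 are not shown, and Clspn and Gins3 did not pass either. Each is written 5′ to 3′ on the strand of its gene with the matched letters in capitals, and capitals that read GCGGGAAA, GCGCGAAA or GCGCCAAA are matches on the opposite strand. The first 3 are stretches of 100 bases before the start: Brca2, for homologous recombination (chr5:150522407-150522506, plus strand), Pola1, the catalytic subunit of polymerase alpha (chrX:93632240-93632339, minus strand), and Casp8ap2, a factor for histone gene transcription whose age change in LT-HSC was only -0.13 (chr4:32615248-32615347, plus strand).
Brca2: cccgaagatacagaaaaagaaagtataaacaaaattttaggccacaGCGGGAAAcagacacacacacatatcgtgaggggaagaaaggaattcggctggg
Pola1: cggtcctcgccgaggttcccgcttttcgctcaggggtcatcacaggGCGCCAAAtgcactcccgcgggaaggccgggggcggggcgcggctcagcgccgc
Casp8ap2: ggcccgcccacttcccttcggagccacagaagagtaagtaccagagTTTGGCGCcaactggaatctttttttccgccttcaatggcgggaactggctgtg
The next are 30-base sites at or near the RefSeq start, except that of Topbp1. The Topbp1 site lies before its RefSeq start but reaches the start of its GENCODE gene model, and the Lig1 site lies inside its GENCODE gene model. These sites are from Rfc3, a clamp loader subunit and the only gene with a pair of matches (chr5:151651195-151651224, minus strand), Lig1, the ligase that seals Okazaki fragments (chr7:13278841-13278870, plus strand), Pold1, the catalytic subunit of polymerase delta (chr7:44548766-44548795, minus strand), Pole2, a polymerase epsilon subunit (chr12:69228162-69228191, minus strand), Topbp1, a scaffold of helicase activation and checkpoint signalling (chr9:103305187-103305216, plus strand), and Msh6, a mismatch recognition protein (chr17:87975054-87975083, plus strand).
Rfc3: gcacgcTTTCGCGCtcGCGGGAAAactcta
Lig1: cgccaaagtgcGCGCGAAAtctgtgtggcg
Pold1: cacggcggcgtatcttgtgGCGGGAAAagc
Pole2: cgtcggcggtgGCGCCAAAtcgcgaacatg
Topbp1: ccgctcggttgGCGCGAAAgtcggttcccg
Msh6: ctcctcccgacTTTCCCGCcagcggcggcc
Of the 13 matches in the 12 genes, 6 lay wholly before the RefSeq start and 7 at or after it.

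Among the clamp PCNA and its loaders, 6 of 7 genes fell in aged LT-HSC, with a median change of -0.61. Pcna, the sliding clamp itself, fell by 0.61 on the log2 scale (adjusted p = 0.0043), from 97.0 ± 11.6 to 63.7 ± 17.2 CPM, though aged library 1 at 89.2 CPM overlapped the young range. Rfc2, a small subunit of the replication factor C loader (chr5:134581366-134601805, plus strand), had 112, 141, 168 and 143 CPM in young and 81.2, 83.1, 80.4 and 76.5 CPM in aged LT-HSC. It fell by 0.81 (95% interval -1.01 to -0.62, adjusted p = 5.6e-07), the smallest p of the role, and the 4 aged values lay within a narrow band. Rfc2 went the other way in ST-HSC, with 183, 164, 139 and 155 CPM in young and 211, 222, 204 and 191 CPM in aged ST-HSC. It rose there by 0.37 (interval 0.18 to 0.56, adjusted p = 0.016), without overlap of the ages, where 5.94% of all tested genes were higher without overlap. Without young ST-HSC library 3 the ST-HSC change was 0.32 with adjusted p = 0.068. Rfc2 was at 213, 239, 231 and 226 CPM in young and 256, 231, 254 and 255 CPM in aged MPP, which did not pass the test (0.13, adjusted p = 0.41). The exons of Rfc2 share 952 of 6303 bases with the gene Lat2 on the opposite strand, and Lat2 also rose in ST-HSC (0.78, adjusted p = 0.018), with -0.12 and adjusted p = 0.78 in LT-HSC. The library chemistry does not mark strand, so reads from the shared bases cannot be told apart. Markers of granulocyte and monocyte precursors made up 0.00905% to 0.0111% of counts in young and 0.0267% to 0.316% in aged ST-HSC, and their part in the rise of Rfc2 was not tested.

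Rfc1, the large subunit of the same loader (chr5:65261850-65335670, minus strand), was the one gene of this role that did not pass the test. Rfc1 had 91.1, 116, 112 and 121 CPM in young and 94.5, 92.9, 81.6 and 89.8 CPM in aged LT-HSC, overlapping values with a change of -0.30 (interval -0.53 to -0.06, adjusted p = 0.072). Without young LT-HSC library 1 its change was -0.38 with adjusted p = 0.024. Rfc1 levels were 119.7, 81.0, 92.5 and 85.4 CPM in young and 109, 121, 108 and 121 CPM in aged ST-HSC (0.28, adjusted p = 0.16). The same gene had 146, 143, 148 and 139 CPM in young and 143, 129.8, 189 and 137 CPM in aged MPP (0.06, adjusted p = 0.82). Of the other loader genes, Rfc4 fell by 1.16, Rfc3 by 0.55 and Rfc5 by 0.39. Rfc5 sat near the threshold (adjusted p = 0.042) and did not pass it without aged LT-HSC library 2 (0.084) or 3 (0.11) or without young LT-HSC library 1 (0.054), 3 (0.071) or 4 (0.1). Dscc1, of the alternative loader that acts in sister chromatid cohesion, fell by 1.40 from 6.58 ± 2.12 to 2.53 ± 1.44 CPM, with overlapping libraries.

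All 9 genes of the replicative DNA polymerases and primase fell in aged LT-HSC, with a median change of -1.09 and a range from -1.74 to -0.54. Pole, the catalytic subunit of polymerase epsilon (chr5:110286306-110337474, plus strand), had 139.6, 189, 196 and 209 CPM in young and 67.6, 31.7, 66.6 and 53.8 CPM in aged LT-HSC. Pole fell 3.35-fold (log2 -1.74, interval -2.37 to -1.12, adjusted p = 0.00035), and its lowest young library was above its highest aged one by more than the whole aged range. Pole varied widely in ST-HSC, with 225, 121, 84.6 and 187 CPM in young and 157, 139.5, 115 and 190.0 CPM in aged ST-HSC (-0.04, adjusted p = 0.97). In MPP Pole had 339, 389.8, 346 and 372 CPM in young and 321, 277, 427 and 189 CPM in aged cells (-0.25, adjusted p = 0.64). Pole2, its second subunit (chr12:69201773-69228195, minus strand), had 16.7, 22.7, 25.6 and 17.3 CPM in young and 6.53, 9.55, 8.93 and 8.78 CPM in aged LT-HSC, a fall of 1.28 (adjusted p = 2.1e-05). Pole2 was lower in every aged MPP library than in every young one, a pattern found in 7.64% of all tested genes. It had 36.5, 32.5, 30.7 and 31.4 CPM in young and 24.2, 23.4, 28.6 and 24.8 CPM in aged MPP, and did not pass the test there (-0.38, interval -0.74 to -0.01, adjusted p = 0.19). Pole2 had 24.9, 13.4, 12.7 and 18.7 CPM in young and 18.2, 20.1, 16.6 and 21.3 CPM in aged ST-HSC (0.13, adjusted p = 0.75).

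Pold1, whose promoter site is printed above (chr7:44532746-44548849, minus strand), had 111, 189, 179.5 and 172 CPM in young and 65.1, 51.9, 67.5 and 70.4 CPM in aged LT-HSC. It fell by 1.36 (interval -1.72 to -0.997, adjusted p = 6.9e-06) with no overlap. Pold1 levels were 196, 132, 113 and 139 CPM in young and 168, 129, 106 and 142 CPM in aged ST-HSC, and 272, 250.5, 292 and 305 CPM in young and 294, 243, 286 and 230.1 CPM in aged MPP, with ages overlapping in both (-0.09, adjusted p = 0.83 and -0.09, adjusted p = 0.81). Pola2, the regulatory subunit of the primer-making polymerase alpha (chr19:5940542-5964202, minus strand), had the smallest p of the role. Pola2 had 78.4, 86.7, 89.9 and 91.3 CPM in young and 47.9, 34.9, 40.6 and 39.4 CPM in aged LT-HSC, a fall of 1.09 (interval -1.36 to -0.82, adjusted p = 1.0e-06). In ST-HSC Pola2 had 88.2, 68.5, 61.3 and 83.0 CPM in young and 88.3, 74.2, 62.5 and 86.9 CPM in aged cells, and in MPP 136, 137, 136 and 134 CPM and 134, 112, 148 and 99.6 CPM. Neither comparison passed the test (0.06, adjusted p = 0.86, and -0.14, adjusted p = 0.56). The primase subunits Prim1 and Prim2 fell by 1.33 and 0.96, Pola1 by 1.04, and the accessory delta subunits Pold2 and Pold3 by 0.54 and 0.71.

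Of the genes for helicase assembly and origin firing, 3 of 7 fell in aged LT-HSC, with a median of -0.89. Cdc7, the kinase that fires origins together with its activator Dbf4 (chr5:106964322-106984432, plus strand), had 37.0, 40.4, 51.1 and 47.0 CPM in young and 16.0, 9.05, 18.5 and 20.9 CPM in aged LT-HSC. Cdc7 fell by 1.46 (interval -2.06 to -0.85, adjusted p = 0.0011), with no overlap, while Dbf4 changed by -0.34 with adjusted p = 0.36. Cdc7 spread widely in ST-HSC, with 55.8, 31.7, 20.9 and 48.9 CPM in young and 32.6, 49.3, 21.0 and 39.8 CPM in aged ST-HSC (-0.14, adjusted p = 0.85). It had 87.3, 90.8, 84.0 and 73.0 CPM in young and 58.9, 59.1, 87.2 and 55.6 CPM in aged MPP (-0.36, adjusted p = 0.45), where aged library 3 stood above the other 3 aged libraries. Cdc45, the helicase cofactor (chr16:18780447-18811987, minus strand), had 27.8, 30.7, 38.1 and 34.9 CPM in young and 20.2, 12.5, 15.3 and 17.1 CPM in aged LT-HSC. It fell by 1.02 (interval -1.54 to -0.50, adjusted p = 0.0058). Cdc45 levels were 46.2, 23.8, 13.8 and 32.9 CPM in young and 39.4, 42.7, 26.8 and 39.3 CPM in aged ST-HSC (0.35, adjusted p = 0.45), and 82.5, 97.6, 78.3 and 94.1 CPM in young and 68.5, 56.9, 90.7 and 71.5 CPM in aged MPP (-0.29, adjusted p = 0.48). Of the GINS subunits only Gins1 passed the test (-1.02, adjusted p = 0.047), and it did not without aged LT-HSC library 1 (0.094) or 2 (0.15), without young LT-HSC library 2 (0.088) or 3 (0.2), or by limma-voom (0.075). Gins2, Gins3 and Gins4 changed by -0.70 (0.14), -0.89 (0.062) and -0.23 (0.44), with adjusted p in parentheses. Without aged LT-HSC library 1, Gins2 and Gins3 were at -1.08 (0.028) and -1.09 (0.043). The exons of Gins2 share 2758 of 4097 bases with Gse1 on the opposite strand, and Gse1 rose in aged LT-HSC (0.38, adjusted p = 0.006).

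Genes for single-strand binding and the lagging strand fell in 4 of 5 cases, with a median of -0.97. Lig1, the DNA ligase of replication (chr7:13277283-13311433, plus strand), had 78.1, 126, 144 and 127 CPM in young and 43.4, 31.0, 39.2 and 43.7 CPM in aged LT-HSC. Lig1 fell 3.03-fold (log2 -1.60, interval -2.07 to -1.13, adjusted p = 3.8e-05), each aged library below each young one. It had 145, 86.8, 65.5 and 89.8 CPM in young and 108, 120.2, 65.3 and 109 CPM in aged ST-HSC (0.06, adjusted p = 0.92), and 198, 226, 219 and 229 CPM in young and 185, 153, 212 and 158 CPM in aged MPP (-0.30, adjusted p = 0.42). Rpa1 and Rpa2 encode subunits of replication protein A, which coats single-stranded DNA. Rpa1 (chr11:75298166-75348324, minus strand) had 95.1, 107, 117 and 121 CPM in young and 75.4, 75.8, 84.2 and 70.6 CPM in aged LT-HSC, a small fall of 0.53 (adjusted p = 0.011) without overlap. Rpa1 was at 110.5, 76.9, 71.6 and 112 CPM in young and 95.3, 79.7, 70.1 and 121 CPM in aged ST-HSC (-0.01, adjusted p = 0.98), and at 139, 146, 147 and 149 CPM in young and 151, 126, 168 and 136 CPM in aged MPP (-0.00, adjusted p = 1). Rpa2 (chr4:132768332-132778752, plus strand) had 39.7, 68.5, 72.5 and 62.6 CPM in young and 28.3, 30.8, 29.1 and 30.4 CPM in aged LT-HSC, a fall of 1.04 (interval -1.35 to -0.73, adjusted p = 1.6e-05). The aged values of Rpa2 were close together and below every young value. Rpa2 had 62.0, 47.5, 45.3 and 61.5 CPM in young and 58.5, 57.7, 40.3 and 64.7 CPM in aged ST-HSC (0.04, adjusted p = 0.93), and 88.1, 84.4, 104 and 92.8 CPM in young and 89.2, 84.4, 87.9 and 88.6 CPM in aged MPP (-0.08, adjusted p = 0.81). Fen1, the flap nuclease of Okazaki fragments, fell by 0.98, and Rpa3, the smallest subunit, changed by -0.34 with adjusted p = 0.4.

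Both genes of ribonucleotide reductase, the enzyme that makes deoxyribonucleotides, fell in aged LT-HSC. Rrm1, the large subunit (chr7:102441695-102469771, plus strand), had 116, 139.9, 187 and 141 CPM in young and 92.2, 55.2, 62.0 and 91.0 CPM in aged LT-HSC, a fall of 0.96 (interval -1.50 to -0.42, adjusted p = 0.013). Rrm1 levels were 186, 119, 77.8 and 162 CPM in young and 161, 165, 95.7 and 218 CPM in aged ST-HSC (0.24, adjusted p = 0.66), and 308, 303, 314 and 309 CPM in young and 283, 244, 368 and 298 CPM in aged MPP (-0.05, adjusted p = 0.94). Rrm2, the small subunit whose protein is known to be made in S phase and destroyed afterwards (chr12:24708241-24714146, plus strand), had 17.0, 19.8, 47.0 and 67.4 CPM in young and 12.5, 2.85, 3.57 and 8.66 CPM in aged LT-HSC. Rrm2 fell 5.61-fold (log2 -2.49, interval -3.80 to -1.18, adjusted p = 0.0087), the lowest log2 change of the 54, but its young libraries were far apart and limma-voom gave adjusted p = 0.054. Rrm2 had 56.8, 84.1, 31.1 and 83.5 CPM in young and 118, 82.2, 10.4 and 79.5 CPM in aged ST-HSC (0.20, adjusted p = 0.89), where aged library 3 was far below the other aged ones. Rrm2 was higher in MPP, with 170.1, 154, 153 and 149 CPM in young and 184, 151, 182 and 157 CPM in aged cells (0.11, adjusted p = 0.93).

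Chromatin assembly and histone supply split, with 2 of 5 genes lower in aged LT-HSC. Chaf1a and Chaf1b encode the large and middle subunits of CAF-1, which places histones on new DNA. Chaf1a (chr17:56040439-56072289, plus strand) had 57.4, 95.4, 89.3 and 83.8 CPM in young and 36.5, 20.1, 32.8 and 35.0 CPM in aged LT-HSC, a fall of 1.39 (interval -1.81 to -0.98, adjusted p = 2.8e-05). Chaf1b (chr16:93883901-93906115, plus strand) had 77.9, 104, 92.2 and 107 CPM in young and 93.9, 89.5, 99.0 and 87.4 CPM in aged LT-HSC, overlapping throughout, with a change of -0.04 (interval -0.25 to 0.17, adjusted p = 0.81). These intervals do not overlap, and the difference between the genes was not tested. Chaf1a had 89.2, 65.2, 45.9 and 75.8 CPM in young and 78.3, 76.9, 54.1 and 89.7 CPM in aged ST-HSC (0.12, adjusted p = 0.79), and 139.6, 153, 161 and 138 CPM in young and 149, 129.6, 142 and 116 CPM in aged MPP (-0.14, adjusted p = 0.72). Chaf1b was at 97.2, 91.7, 72.5 and 85.4 CPM in young and 107, 103, 93.3 and 101 CPM in aged ST-HSC (0.23, adjusted p = 0.22), and at 84.9, 92.0, 90.6 and 94.1 CPM in young and 93.9, 89.0, 105 and 79.2 CPM in aged MPP (0.02, adjusted p = 0.94). Of the exon bases of Chaf1a, 4648 of 8854 lie opposite Ubxn6, whose change in LT-HSC was 0.0042 with adjusted p = 0.99. Slbp, the histone mRNA stem-loop binding protein, fell by 1.19 (adjusted p = 0.00025). Asf1b, a histone chaperone, changed by -1.16 with adjusted p = 0.068, and by -1.61 with adjusted p = 0.018 without aged LT-HSC library 4. Casp8ap2, with the E2F motif printed above, changed by -0.13 with adjusted p = 0.52.

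Fork protection and checkpoint genes fell in 3 of 4 cases. Timeless, which with Tipin keeps helicase and polymerase coupled (chr10:128232065-128252941, plus strand), had 31.2, 84.2, 79.8 and 67.7 CPM in young and 12.3, 11.2, 12.88 and 16.2 CPM in aged LT-HSC. Timeless fell 5.00-fold (log2 -2.32, interval -2.86 to -1.78, adjusted p = 1.8e-06), and young library 1 was the lowest of the young values but still above every aged one. Timeless had 66.4, 53.1, 42.4 and 55.9 CPM in young and 80.1, 57.8, 43.2 and 81.7 CPM in aged ST-HSC (0.28, adjusted p = 0.56), and 128, 113, 139 and 127 CPM in young and 154, 110.0, 152 and 116 CPM in aged MPP (0.07, adjusted p = 0.9). When aged ST-HSC libraries 2 and 3 and young LT-HSC library 1 were left out, a choice made after their markers were seen, Timeless rose in aged ST-HSC (0.57, adjusted p = 0.049) and Rfc2 no longer passed (0.066). With aged ST-HSC library 1 left out as well, which leaves a lone aged ST-HSC library that is assumed to vary like the others, none of the 54 passed for age in ST-HSC by edgeR (8 had an unadjusted p below 0.05), and Rfc2 was at 0.26 (adjusted p = 0.36). Topbp1 (chr9:103305215-103350428, plus strand) had 146, 205, 170.4 and 195 CPM in young and 116, 99.1, 107 and 107 CPM in aged LT-HSC, a fall of 0.74 (interval -0.999 to -0.48, adjusted p = 0.00016). Its levels were 216, 144, 135 and 199.6 CPM in young and 189, 211, 160.0 and 199.7 CPM in aged ST-HSC (0.13, adjusted p = 0.61), and 289.8, 322, 319.6 and 286 CPM in young and 313, 285, 355 and 288 CPM in aged MPP (0.03, adjusted p = 0.92). Topbp1 and Pcna each have a pair of named pseudogenes, so a share of their reads may be split between copies. Tipin fell by 0.95 (adjusted p = 0.043) and was close to the threshold. Leaving out 1 of 6 LT-HSC libraries (any but aged library 4 and young library 1) gave adjusted p from 0.054 to 0.14 for Tipin. Clspn, the checkpoint mediator claspin, changed by -1.06 with adjusted p = 0.11, and by -1.53 with 0.031 without aged LT-HSC library 1 and -1.30 with 0.045 without young library 1.

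Of the genes for repair at the fork, 10 of 11 fell in aged LT-HSC, with a median of -1.19. Ung, the uracil DNA glycosylase that removes uracil from DNA (chr5:114130386-114139323, plus strand), had 17.4, 36.8, 41.9 and 19.4 CPM in young and 4.48, 5.69, 4.21 and 7.68 CPM in aged LT-HSC. Ung fell 5.21-fold (log2 -2.38, interval -2.92 to -1.84, adjusted p = 4.1e-07), the smallest p of the 54, with young libraries 1 and 4 below young libraries 2 and 3 and all 4 above every aged library. Ung had 24.8, 19.1, 16.5 and 18.3 CPM in young and 20.7, 20.2, 12.0 and 16.1 CPM in aged ST-HSC (-0.18, adjusted p = 0.74), and 30.8, 42.6, 40.5 and 44.3 CPM in young and 39.3, 34.0, 26.4 and 37.4 CPM in aged MPP (-0.21, adjusted p = 0.65). Msh6, which recognises mismatches left by the polymerases (chr17:87975062-87990892, plus strand), had 98.8, 129, 143 and 128 CPM in young and 90.1, 92.7, 82.4 and 93.3 CPM in aged LT-HSC, a fall of 0.47 (adjusted p = 0.00096). Its values in ST-HSC were 151, 129, 129.8 and 143 CPM in young and 119, 147, 115 and 149.99 CPM in aged cells (-0.06, adjusted p = 0.81). In MPP Msh6 had 159, 167, 161 and 177 CPM in young and 147, 151, 154 and 155 CPM in aged cells. It was lower in each aged library, a pattern found in 7.64% of all tested genes, without passing the test (-0.13, interval -0.33 to 0.07, adjusted p = 0.45). Brca2, which acts in homologous recombination (chr5:150522630-150570329, plus strand), had 61.2, 70.5, 83.9 and 87.0 CPM in young and 56.4, 32.01, 39.8 and 49.3 CPM in aged LT-HSC, a fall of 0.77 (interval -1.15 to -0.39, adjusted p = 0.0042). Brca2 levels were 80.2, 44.0, 45.5 and 73.0 CPM in young and 74.4, 69.4, 58.5 and 66.5 CPM in aged ST-HSC (0.15, adjusted p = 0.71), and 104, 127, 110.3 and 118 CPM in young and 107, 108, 143 and 99.0 CPM in aged MPP (-0.01, adjusted p = 0.99).

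Other repair genes that fell in aged LT-HSC were Brca1 (-1.67), the nuclease gene Exo1 (-1.53), Wdr76 (-1.29), the Fanconi anemia gene Fanci (-1.19), the helicase gene Blm (-0.63), the deubiquitinase gene Usp1 (-0.49) and Rad51ap1 (-1.99). Blm did not pass without aged LT-HSC library 1 (0.054) or 3 (0.051), nor Usp1 without aged library 3 (0.082) or young library 3 (0.072). Rad51ap1 did not pass without aged LT-HSC library 2 (0.051) or 3 (0.051), and its change was -2.69 without aged library 1. Fancd2, the partner of Fanci, changed by -0.55 with adjusted p = 0.37.

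Regulators of the G1 to S step fell in 3 of 4 cases, with a median of -1.53. E2f1, an activating E2F factor (chr2:154559407-154569892, minus strand), had 20.6, 47.6, 45.7 and 35.8 CPM in young and 15.4, 5.89, 9.69 and 12.0 CPM in aged LT-HSC. E2f1 fell 3.50-fold (log2 -1.81, interval -2.45 to -1.17, adjusted p = 0.00025) without overlap. It had 38.9, 22.8, 16.1 and 37.8 CPM in young and 26.5, 21.5, 15.5 and 25.6 CPM in aged ST-HSC (-0.36, adjusted p = 0.54), and 44.4, 50.04, 47.2 and 62.4 CPM in young and 56.0, 39.8, 41.3 and 33.0 CPM in aged MPP (-0.26, adjusted p = 0.64). E2f8, an E2F factor that represses transcription late in S phase (chr7:48866429-48881596, minus strand), had 18.0, 15.1, 23.2 and 34.2 CPM in young and 4.60, 0.813, 0.128 and 11.7 CPM in aged LT-HSC. The aged LT-HSC values of E2f8 rested on 38, 8, 1 and 96 counts. E2f8 fell by 2.42 (interval -3.66 to -1.18, adjusted p = 0.007), with -3.65 without aged library 4, and a fit to only these groups gave adjusted p = 0.13. In ST-HSC E2f8 had 35.0, 16.1, 10.6 and 18.5 CPM in young and 40.9, 49.7, 22.4 and 42.0 CPM in aged cells, higher in aged on average without passing the test (0.96, interval -0.10 to 2.03, adjusted p = 0.31), though limma-voom gave adjusted p = 0.046. E2f8 levels in MPP were 91.7, 68.0, 93.6 and 85.9 CPM in young and 76.9, 69.8, 94.1 and 70.4 CPM in aged cells (-0.12, adjusted p = 0.91). The cyclin E genes diverged in their test results at similar size, Ccne2 falling by 1.22 (adjusted p = 0.0088) and Ccne1 changing by -1.25 (adjusted p = 0.3), and by -1.95 (0.16) without aged library 1. Of the exon bases of Ccne2, 609 of 3495 lie opposite Ints8, which also fell in aged LT-HSC (-0.435, adjusted p = 0.021), and the part of Ints8 reads in the fall of Ccne2 was not tested. Ccne1 had only 79 counts over the 4 aged LT-HSC libraries, the fewest of any member and group.

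**Figure D3:**
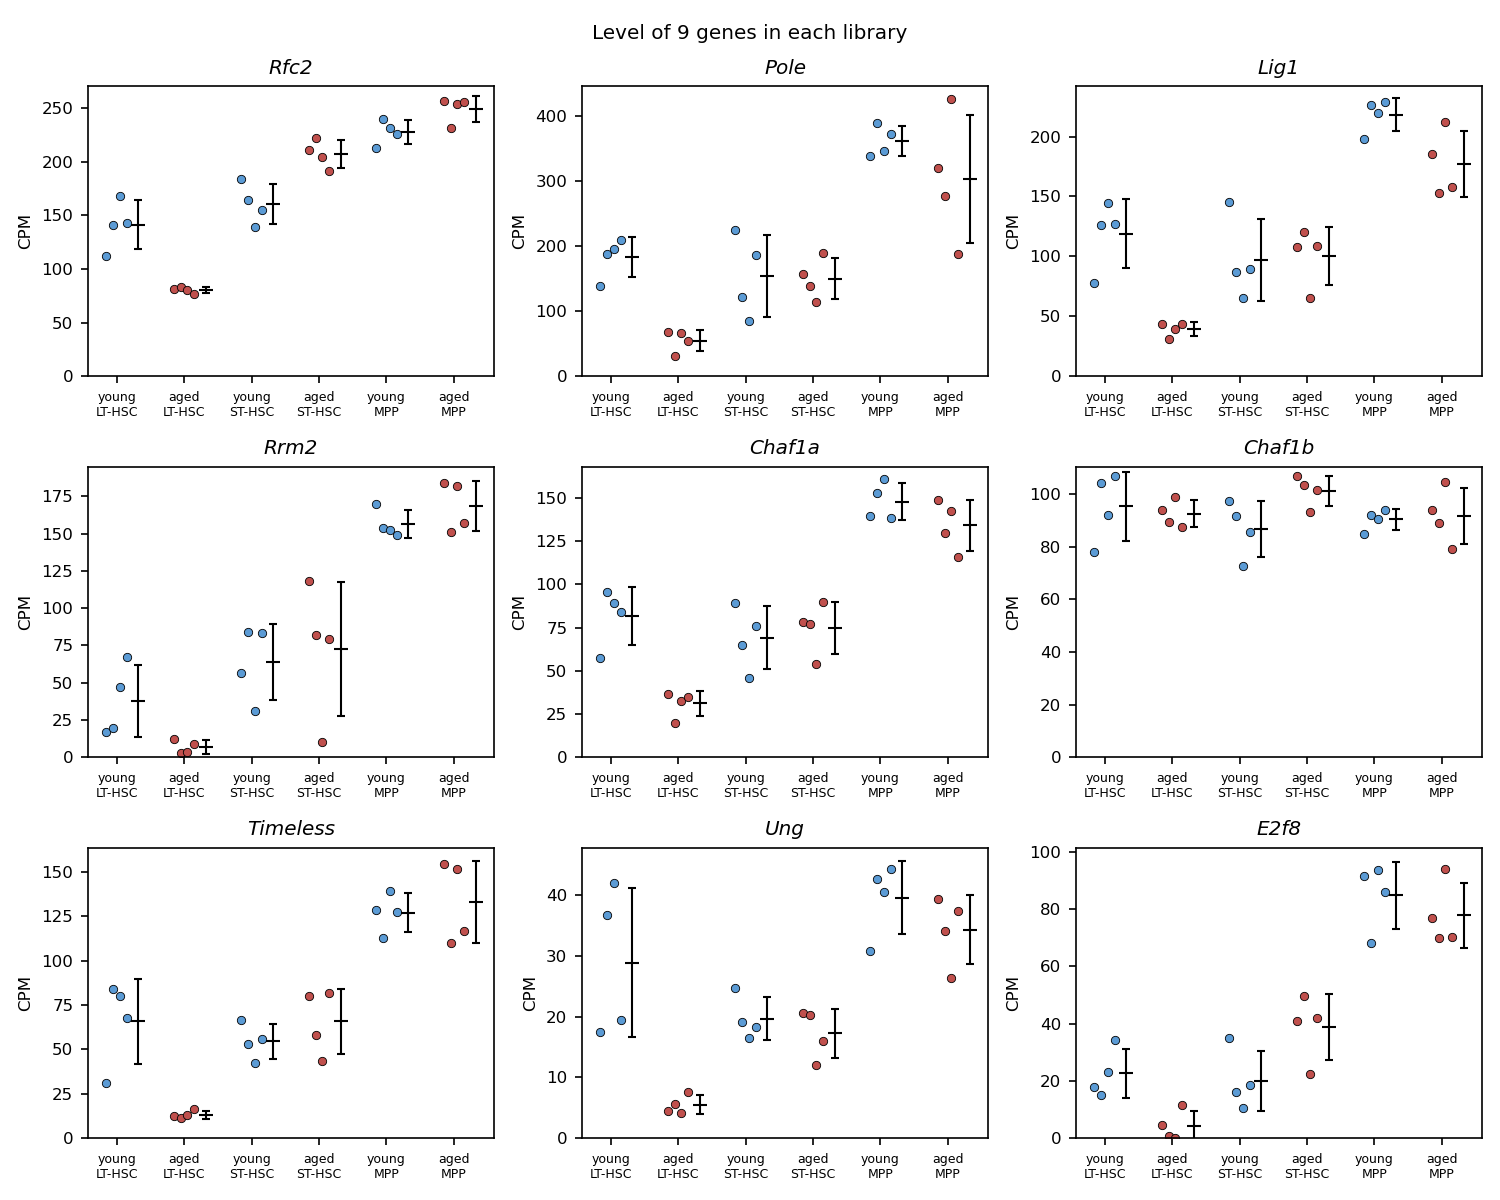
Level (CPM, y axis of each panel) of 9 of the genes in each library, by group on the x axis, with each point a library and the line and bar the group mean and SD. Timeless and Ung drop in the 4 aged LT-HSC libraries to at most 16.2 and 7.68 CPM, while Chaf1b stays between 72.5 and 107 CPM in every library.

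The genes whose age change differed most clearly between LT-HSC and ST-HSC came from several roles. Rfc2 differed by -1.18 (interval -1.45 to -0.91, adjusted p = 2.6e-06) and Timeless by -2.60 (interval -3.33 to -1.87, adjusted p = 0.00014). Pola2, Ung, Pole2 and Chaf1a differed by -1.15, -2.20, -1.41 and -1.51, with adjusted p of 0.00037, 0.0005, 0.0019 and 0.0025. Against MPP the 6 of smallest p were Rfc2 (-0.95), Timeless (-2.39), Ung (-2.17), Pola2 (-0.95), Pold1 (-1.27) and Rpa2 (-0.96), with adjusted p from 2.7e-05 to 0.0035. The other 16 of the 22 genes had larger p-values against ST-HSC. For Pcna (-0.67, adjusted p = 0.065 against ST-HSC) and Brca1 (-1.81, adjusted p = 0.074), which fell in LT-HSC, a difference from ST-HSC was not shown.

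Between populations, the genes were highest in MPP at both ages, and the place of LT-HSC depended on age. In young mice 42 of the 54 genes were lower in ST-HSC than in MPP, with a median difference of -0.91, where 10.1% of all tested genes were lower. Libraries did not overlap for 46 of the 54, where 12.6% of all tested genes were lower without overlap. Young LT-HSC were likewise below young MPP for 42 genes, with a median of -0.77, where 18.3% of all tested genes were lower. Between young LT-HSC and young ST-HSC none of the 54 passed the test by edgeR, DESeq2 or limma-voom, with 4, 4 and 6 unadjusted p-values below 0.05 and a median of 0.13, where 12.5% of all tested genes differed by edgeR. Without young ST-HSC library 1, whose summed level was the highest of its group, Prim2, Exo1, Rfc1, Rfc5 and Rfc3 were higher in young LT-HSC than in young ST-HSC, by 0.37 to 0.81 (adjusted p = 0.030 to 0.046), and without young LT-HSC library 1 Ung was (0.73, adjusted p = 0.044). These 6 names were taken after their values were seen.

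In aged mice 45 of the 54 genes were lower in LT-HSC than in ST-HSC, with a median difference of -1.10, where 16.1% of all tested genes were lower. Libraries did not overlap for 31 of the 54, where 12.6% of all tested genes were lower without overlap. Timeless differed by -2.33 (interval -2.87 to -1.79, adjusted p = 4.6e-07) and Rfc2 by -1.37 (interval -1.56 to -1.17, adjusted p = 1.1e-11). Aged ST-HSC were below aged MPP for 38 genes, with a median of -0.81, where 14.4% of all tested genes were lower. That count was 20 without aged ST-HSC libraries 2 and 3 and young LT-HSC library 1, and 26 without aged ST-HSC library 3. It was 4 when aged ST-HSC libraries 1, 2 and 3 and young LT-HSC library 1 were left out, with 1 aged ST-HSC library remaining. Aged LT-HSC were below aged MPP for 53 genes, all but Chaf1b, with a median of -1.80, where 28.5% of all tested genes were lower. Rrm2 had the lowest difference, -4.63 (interval -5.97 to -3.28, adjusted p = 5.5e-06), followed by E2f8 (-4.19, interval -5.44 to -2.94) and Timeless (-3.34, interval -3.89 to -2.79). The comparisons within an age share libraries. Shares of all tested genes belong to the fit to all 24 libraries, and those of the refits are not given here.

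**Figure D4:**
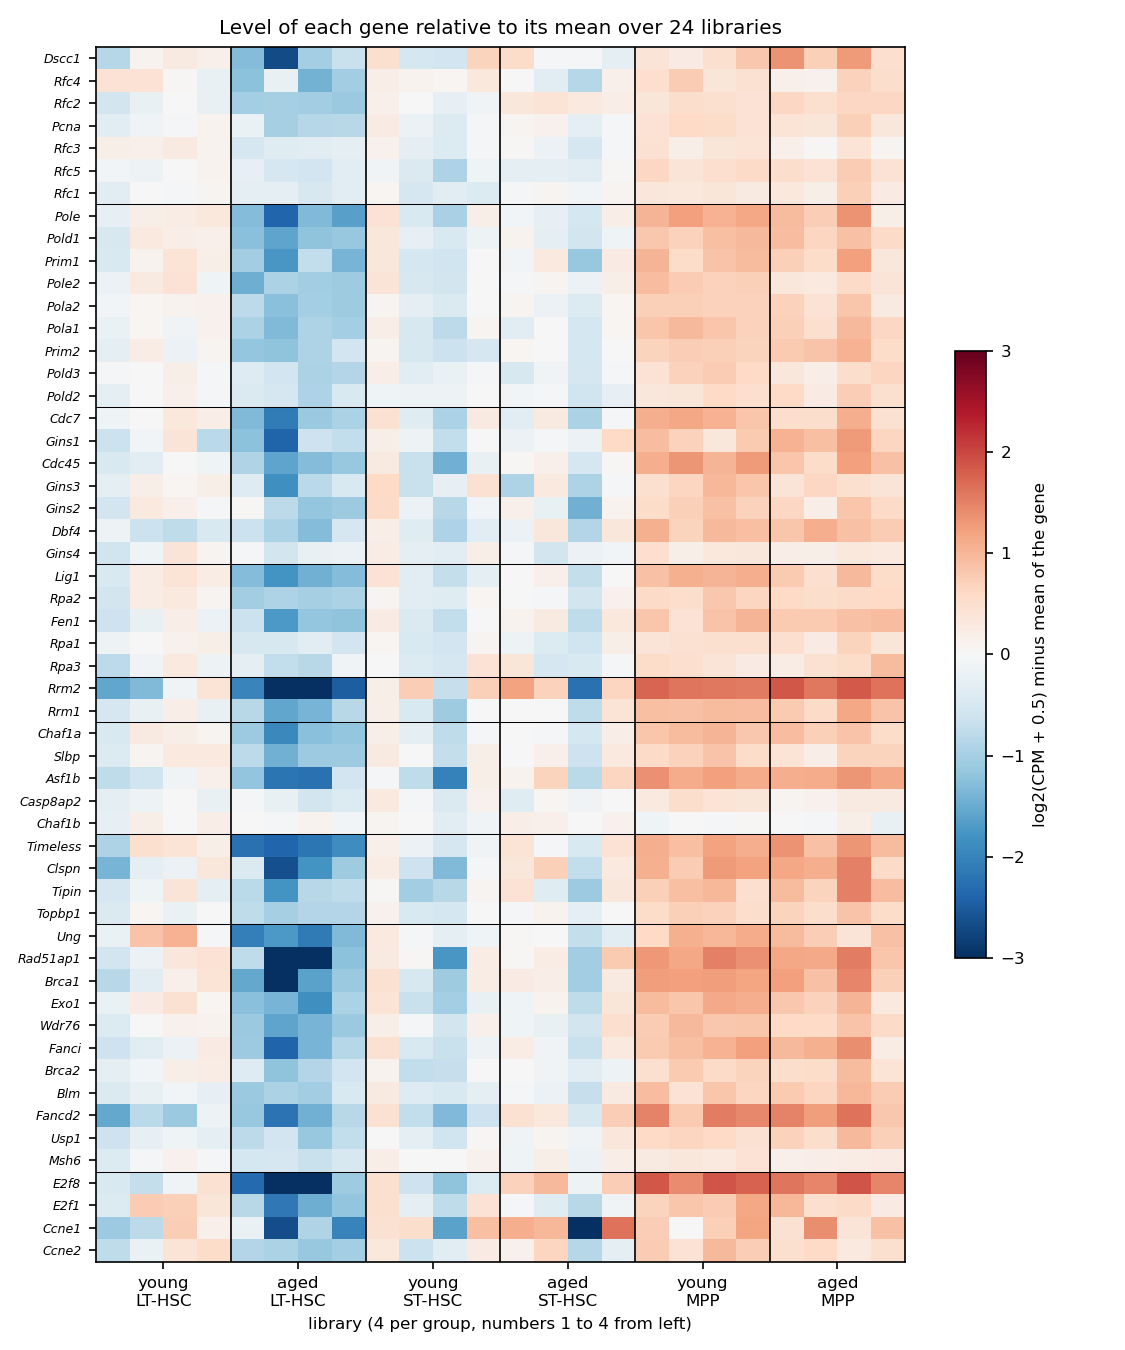
Level of each of the 54 genes (rows, grouped by role) in each of the 24 libraries (columns, by group), as log2(CPM + 0.5) minus the mean of the gene over the 24 libraries, with colours limited at 3 in either direction. As group means, aged LT-HSC is the lowest for 53 of the 54 genes and an MPP group the highest for 52, and the values run from -5.35 to 1.89.

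Ordered by group mean, aged LT-HSC was the lowest group for 53 of the 54 genes and an MPP group the highest for 52, young MPP for 36 and aged MPP for 16. Over all tested genes, aged LT-HSC was the lowest group for 28% and an MPP group the highest for 39.5%. For 20 genes all 4 aged LT-HSC libraries were below the other 20 libraries, and for 29 genes the lowest MPP library was above all 16 libraries of the other populations. These patterns were found in 3.22% and 4.24% of all tested genes. Young LT-HSC had a higher mean than young ST-HSC for 39 of the 54, where 50.8% of all tested genes had that order. This order did not pass the test for any of the 54. The ratio of the highest to the lowest group mean was 24.5 for Rrm2, 19.7 for E2f8, 10.1 for Timeless, 9.67 for Rad51ap1 and 7.78 for Brca1, and was smallest for Gins4 (1.51) and Chaf1b (1.17).

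Levels were divided by the joined length of all annotated exons of a gene, which can exceed that of the transcripts present, so genes can be compared only roughly. Pcna had the highest level of the 54, 44.99 CPM per kb as the mean of the 6 groups. Pold1 followed with 36.0, Msh6 with 30.8, Rrm2 with 30.4 and Lig1 with 29.3 CPM per kb, and Dscc1 was lowest with 1.77 CPM per kb. Pcna was at 40.4 CPM per kb in young and 26.5 CPM per kb in aged LT-HSC, and at 61.0 and 59.3 CPM per kb in young and aged MPP.

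Genes that differed more between ST-HSC and MPP also tended to change more with age in LT-HSC. Across the 54 genes, the age change in LT-HSC and the young ST-HSC minus MPP difference had Pearson's r = 0.545 and Spearman's rho = 0.527, and with the aged ST-HSC minus MPP difference they were 0.537 and 0.540. These pairs share no library but share mice of the same age. The values come from 1 fit and the genes are not independent replicates, so the correlations are descriptions.

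**Figure D5:**
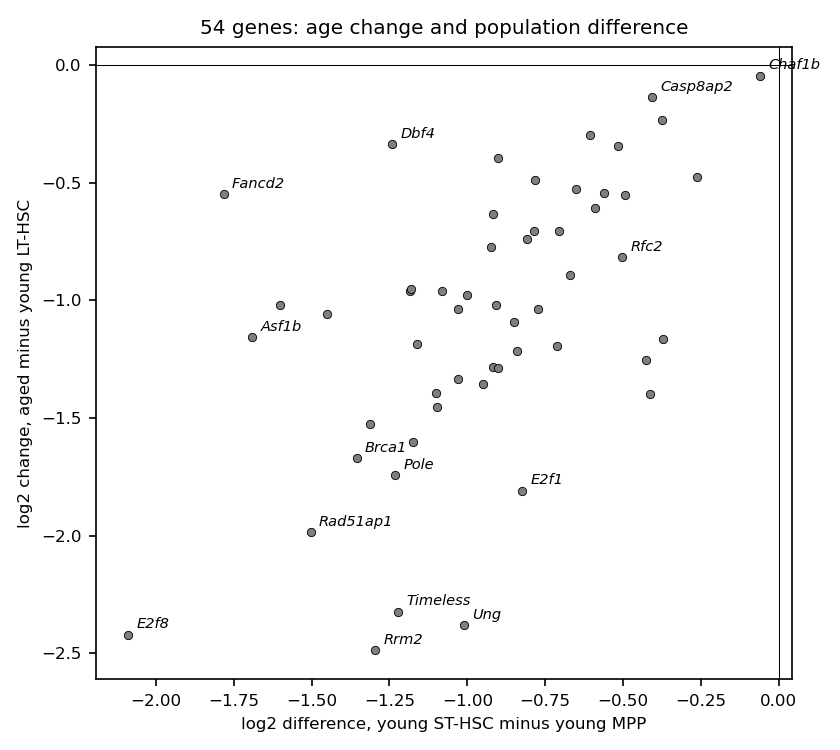
Age change in LT-HSC (log2, aged minus young, y axis) against the difference between young ST-HSC and young MPP (log2, x axis), with each point 1 of the 54 genes. E2f8 lies at the lower left with -2.09 and -2.42, and Chaf1b at the upper right with -0.06 and -0.04.

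The rest of the replication pathway was described with lists of related genes. Over all tested genes 8.87% fell and 9.98% rose in aged LT-HSC. Of the licensing and MCM helicase genes 12 of 16 fell in aged LT-HSC and none rose, with a median of -1.31, and Mcm3 went from 327 ± 50.9 to 130 ± 6.26 CPM (-1.34, adjusted p = 1.8e-08). Of the other replisome genes 11 of 19 fell and none rose, with a median of -0.83, among them Dna2, a nuclease and helicase (-1.47, adjusted p = 4.5e-06), and Mms22l (-0.95, adjusted p = 1.4e-06). Nucleotide synthesis genes fell in 9 of 18 cases, with a median of -0.50, and Cad, which starts pyrimidine synthesis, went from 296 ± 50.4 to 169 ± 16.1 CPM (-0.81, adjusted p = 2.8e-05). The 1 of the 18 that rose was Rrm2b, the ribonucleotide reductase subunit known to serve cells outside S phase (0.71, adjusted p = 0.0092, and 0.057 without aged LT-HSC library 1), against the falls of Rrm1 and Rrm2. Of the fork checkpoint genes 4 of 11 fell, including the kinase genes Chek1 (-1.78, adjusted p = 2.7e-05) and Wee1 (-0.73, adjusted p = 2e-05). Recombination and Fanconi genes fell in 12 of 24 cases, with a median of -0.56, and Fancc rose (0.54, adjusted p = 0.0015). Mismatch and base excision genes fell in 4 of 13 cases, with a median of -0.09, and the glycosylase gene Neil2 rose (1.51, adjusted p = 0.02, and up to 0.067 without aged LT-HSC library 1 or 3 or young library 3 or 4). Of the chromatin assembly genes 7 of 11 fell, with a median of -0.41, among them the helicase gene Hells (-1.87, adjusted p = 1.2e-05). Rrm2b, Fancc and Neil2 were named after their values were seen.

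E2F and pocket protein genes moved both ways, with 8 of 15 lower and 3 higher in aged LT-HSC, where 8.87% of all tested genes fell and 9.98% rose. Tfdp1, the partner of E2F factors, fell (-0.65, adjusted p = 1.8e-05), and Rbl2, a pocket protein that holds E2F targets silent in quiescent cells, rose from 162 ± 8.92 to 211 ± 11.7 CPM (0.38, adjusted p = 5e-04). The others that rose were E2f5 (0.73, adjusted p = 0.0042) and the kinase gene Cdk6 (0.38, adjusted p = 0.016), both named after their values were seen, and Cdk6 did not pass without young LT-HSC library 1 or 4 or aged library 4 (up to 0.097). In ST-HSC Cdk6 rose from 344 ± 34.0 to 612 ± 44.9 CPM (0.83, adjusted p = 2.5e-05), and E2f6 fell (-0.41, adjusted p = 0.038) but did not pass when any 1 of 7 ST-HSC libraries was left out (up to 0.14). No other gene of these lists passed in ST-HSC. In MPP Wee1, Slx4, Polb and Rbl2 fell and Nme2 rose, by 0.23 to 0.54 in size, and each did not pass without at least 1 library (highest adjusted p from 0.065 for Polb to 0.16 for Nme2). Of the G2 and mitosis genes only 1 of 28 fell in aged LT-HSC, where 8.87% of all tested genes fell. That gene was Smc2 (-0.74, adjusted p = 0.0077), and the median of the list was -0.76. In aged ST-HSC the median of the G2 and mitosis genes was 0.63 with none past the test, and Mki67 was at 572 ± 93.3 against 309 ± 71.9 CPM (0.89, adjusted p = 0.15).

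Markers of other cells were read beside the fall in aged LT-HSC. The summed share of 9 precursor markers was 0.00295% to 0.0989% of counts in young LT-HSC, with 0 to 3 of the 9 at 0, and 0.00607% to 0.00776% in aged LT-HSC, with 2 to 4 at 0. The high value was in young library 1, whose summed level of the 54 genes was the lowest of the young LT-HSC. Without that library the number of genes lower in aged LT-HSC was 43. The 8 megakaryocyte markers made up 0.161% to 0.228% of counts in young and 0.278% to 0.298% in aged LT-HSC, with at most 2 at 0, and 9 T and NK cell markers 0.00264% to 0.00411% and 0.00724% to 0.0121%, with 4 to 6 at 0. Shares overlapped between the ages for 11 B and plasma cell markers (0.00195% to 0.00352% over both), 11 erythroid markers (0.0848% to 0.107%), 8 granulocyte markers (0.00033% to 0.00345%) and 8 mast cell and basophil markers (8.5e-05% to 0.000359%). The 45S ribosomal RNA gene took 6.85% to 10.9% of counts in young and 5.64% to 6.95% in aged LT-HSC, and with it and the hemoglobin genes left out 42 of the 54 fell. The part of megakaryocyte, T and NK cell transcripts in the fall was not tested.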

How the data were processed

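Per the labels' protocols, sorted cells gave cDNA by reverse transcription from not-so-random primers and second-strand synthesis with Klenow fragment. Nextera XT libraries followed, a chemistry without strand marks or molecular identifiers. The submitters' processing notes name HISAT2, featureCounts, Trim Galore and build mm10. Their versions, the annotation and the strand setting were not given in the sources at hand. The values the authors deposited are raw integer counts per gene symbol, in 1 table for all 24 libraries.

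Tests used edgeR 4.0.16 under R 4.3.3 (filterByExpr, TMM factors, robust quasi-likelihood fit over the 24 libraries with a mean for each group, 18 residual degrees of freedom), with Benjamini-Hochberg adjustment over 14205 genes, two-sided tests and a threshold of 0.05. Intervals are 95% intervals from the fit. Totals of 7307151 to 12946550 counts limit low genes most. Replicate libraries of a group were taken as separate mice, since the labels count 4 mice per age. Replicates differed beyond sampling noise, with a chi-square per gene of 6.26 to 26.8 over 36 pairs.

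DESeq2 1.42.0, limma-voom (limma 3.58.1), other scaling, filters, blocks and left-out libraries were alternatives. The fit was tested on simulated data. All 54 genes matched GENCODE M21 models (GRCm38) by symbol, from which exon lengths and positions come, and promoter windows come from RefSeq. Exons of 10 of the 54 overlap a gene on the opposite strand. A planned search of member proteins was not run. Genes with values in every library are the 2 of highest mean level and the 1 of smallest p in LT-HSC of each role, those called against the main direction and up to 6 per difference of age effects. The members, lists and rules were chosen with earlier results of these data known. From related lists, at most 2 genes of smallest p were named unless stated.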

Additional observations from a re-analysis of the deposited data

Results flagged for a closer look

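Of 138 groups of 4 libraries tested for the 22 genes with values in every library and the summed level, 2 held a library far from the other 3, and chance gives about 1 in 20. Rfc2 was at 230.8 CPM in aged MPP library 2 against 254.0 to 255.9 CPM in the other aged MPP libraries, and Cdc7 was at 87.2 CPM in aged MPP library 3 against 55.6 to 59.1 CPM in the others. The age change differed between LT-HSC and ST-HSC by -1.18 for Rfc2, -2.60 for Timeless, -1.15 for Pola2, -2.20 for Ung, -1.41 for Pole2 and -1.51 for Chaf1a. Between LT-HSC and MPP it differed by -0.95 for Rfc2, -2.39 for Timeless, -2.17 for Ung, -0.95 for Pola2, -1.27 for Pold1 and -0.96 for Rpa2. Each of these 12 differences had an adjusted p below 0.05 by edgeR, here and under every alternative run.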

How the results depend on the processing

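Of the 42 genes lower in aged LT-HSC, 34 passed under every alternative, and none changed direction. The count stayed between 37 and 43 when 1 LT-HSC library was left out, 39 of the 42 were kept by limma-voom and 42 by DESeq2. The only reversal was Chaf1b, which passed under no setting and whose change ran from -0.13 to 0.000377 with 1 library left out, the latter without young LT-HSC library 4. The age count in ST-HSC was 2 by limma-voom and 0 to 2 when 1 library was left out, with 0 without young ST-HSC library 3, and in MPP it was 0 in each case. The count for LT-HSC against ST-HSC was 34 without 3 libraries chosen after seeing the data (young LT-HSC library 1, the one of its group with raised precursor markers, and aged ST-HSC libraries 2 and 3, the 2 of their group with most granulocyte markers) and 17 to 37 with 1 library left out, and against MPP 15 to 27. ST-HSC against MPP gave 0 throughout. Young LT-HSC against ST-HSC gave 2 (Timeless and Ung, both higher in LT-HSC) without the 3 libraries and 0 to 5 with 1 left out. Aged ST-HSC against MPP gave 20 without the 3 and 26 to 38 with 1 left out. Aged ST-HSC library 1, with the highest precursor share of its group, was not among the 3. With it left out too (also chosen after seeing the data, 1 aged ST-HSC library remaining), the counts were 46 for age in LT-HSC, 0 for age in ST-HSC, 27 for LT-HSC against ST-HSC, 3 for young LT-HSC against ST-HSC and 4 for aged ST-HSC against MPP. The other ranges with 1 library left out were 37 to 45 for young ST-HSC against MPP, 35 to 44 for young LT-HSC against MPP, 40 to 46 for aged LT-HSC against ST-HSC and 51 to 53 for aged LT-HSC against MPP. The cause of these changes was not tested, and shares of all tested genes in these refits are not given here.

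Deviations of same-numbered libraries had correlations of -0.0414 to 0.13 over 24 pairs, 4 of them over 0.1. In 8 of the 24 pairs the first library correlated best with its own number among the 4 libraries of the second population. These values do not show whether same-numbered libraries share a mouse. With a replicate block over all libraries, 42 of the 54 were lower in aged LT-HSC, 1 higher in ST-HSC and 0 called in MPP. The differences of age change gave 22, 19 and 0 for LT-HSC against ST-HSC, LT-HSC against MPP and ST-HSC against MPP, and 17, 18 and 0 with a replicate block within age. The population comparisons, in the order young LT-HSC against ST-HSC, young ST-HSC against MPP, young LT-HSC against MPP, aged LT-HSC against ST-HSC, aged ST-HSC against MPP and aged LT-HSC against MPP, gave 0, 42, 41, 43, 40 and 53 with the first block and 0, 41, 40, 44, 34 and 52 with the second.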
